A study of Mus musculus with 12 samples.

Results

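The Hox gene clusters hold the 39 protein-coding Hoxa, Hoxb, Hoxc and Hoxd genes of the mouse, out of 21627 protein-coding genes of the GRCm38 annotation. The genes were chosen by symbol alone. Their chromatin is described from ATAC-seq peaks inside each cluster and 10 kb on each side. ATAC-seq uses the Tn5 transposase to cut and tag open DNA, and a peak is a stretch where a peak caller found more tagged fragments than around it. Peaks of all libraries that overlapped were merged into regions, which gave 46 Hox regions of 83727 in the genome. A region exists only because at least 1 library had a peak there, so regions and cluster sums are described without a test.

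The study asked how the chromatin of alveolar type II (AT2) cells differs beside 2 kinds of lung metastasis. AT2 cells are the surfactant-making epithelial cells of the lung. All mice were syngeneic BALB/c, 6 to 8 weeks old, and received 800000 marked tumour cells through the tail vein, 4T1 (a mammary carcinoma line) or CT26 (a colon carcinoma line), 7 days before collection. Each of 12 libraries came from 50000 AT2 cells sorted from a pool of 5 lungs, 3 libraries for each of 4T1 distal lung, 4T1 metastatic niche, CT26 distal lung and CT26 metastatic niche. Every group therefore came from tumour-bearing lungs, and no library came from mice without tumour cells. The labels do not say how the niche was told from distal lung.

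Hox genes encode homeodomain transcription factors that give cells a position along the body axis. Within a cluster the genes stand in the order in which they are used, from low-numbered genes, active early and towards the head, to high-numbered genes, active late and towards the tail. Polycomb complexes hold unused Hox genes silent, Trithorax complexes keep used ones active, and retinoic acid switches on low-numbered genes. In the developing lung low-numbered Hoxa and Hoxb genes are used, mostly in the mesenchyme, and Hoxa5 is needed for normal lung development.

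The Hox clusters were mostly without peaks in every library. Between 7 and 25 Hox peaks were called per library, with 7 to 18 in 4T1 distal, 20 to 25 in 4T1 niche, 7 to 14 in CT26 distal and 13 to 18 in CT26 niche libraries. They were weak peaks. Ranked by the deposited -log10 p within each list, the median Hox peak stood at percentile 5.36 to 16.2, so most peaks of the same list were stronger. The strongest Hox peak of a library stood at percentile 24.3 to 58.9. The median fold enrichment of Hox peaks, as the authors' peak caller gave it, was 3.14 to 3.55, against 4.24 to 4.76 over all peaks, and their median length was 301 to 574.5 bp against 601 to 702 bp. The lists differed in length and held 56330 to 58237 peaks in 4T1 distal, 63722 to 66911 in 4T1 niche, 42067 to 50093 in CT26 distal and 51005 to 55529 in CT26 niche libraries. The lists carry no read counts, so the depth behind each peak is unknown beyond the 30000000 reads per sample that the labels state, and its part in the differences below was not tested. Of the AT2 marker loci 11 of 11, Sftpc, Sftpb and Abca3 among them, had a peak in all 12 libraries, but so had 7 of 7 AT1, 5 of 8 endothelial and 6 of 7 intestinal marker loci, so this does not tell AT2 cells from others.

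Of 24 Hox promoter windows (250 bases before to 50 after a RefSeq start site, 22 genes), 9 overlapped a peak in at least 1 library, which is 37.5% against 48.8% of all 32619 windows. The windows were mostly those of Hoxa and Hoxd genes. Of the Hoxb and Hoxc genes only Hoxb1, Hoxb4, Hoxb8 and Hoxc4 had a window, none of them with a peak, so these clusters are hardly covered here. A peak in all 12 libraries was found at 1 Hox window, that of Hoxa13, which is 4.17% against 39.8% of all windows. The Hox windows were not poor in GC or CpG: their median GC content was 57.7% against 53.0% over all windows, and their median ratio of observed to expected CpG was 0.626 against 0.387. Among all windows at least as rich in both as the lowest Hox window, 72.1% held a peak in some library and 61.7% in all 12. The 9 Hox windows with a peak had a median GC content of 64.0% and the 15 without one 55%.

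Promoters of 3 genes are shown because all libraries of at least 1 group shared a peak there: all 3 4T1 niche libraries alone, all 12 libraries, or all 6 4T1 libraries with few CT26 libraries. Each is printed from RefSeq (GRCm38.p6), 5′ to 3′ along the gene, with the start site at base 251. Capitals mark bases under a peak in every library named. The Hoxa5 window (chr6:52204538-52204837, minus strand) has 78 bases, 223 to 300, under a peak in all 3 4T1 niche libraries and in no other library. The Hoxa13 window (chr6:52260831-52261130, minus strand) has 110 bases, 191 to 300, under a peak in all 12 libraries. The Hoxd1 window (chr2:74762730-74763029, plus strand) has 104 bases, 197 to 300, under a peak in all 6 4T1 libraries.
Hoxa5: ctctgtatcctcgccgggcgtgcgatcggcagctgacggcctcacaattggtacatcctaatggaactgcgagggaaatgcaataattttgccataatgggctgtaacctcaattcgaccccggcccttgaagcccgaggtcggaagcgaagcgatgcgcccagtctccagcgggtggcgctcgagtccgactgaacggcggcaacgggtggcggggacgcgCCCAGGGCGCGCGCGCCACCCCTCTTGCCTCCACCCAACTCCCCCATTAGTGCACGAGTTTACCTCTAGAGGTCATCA
Hoxa13: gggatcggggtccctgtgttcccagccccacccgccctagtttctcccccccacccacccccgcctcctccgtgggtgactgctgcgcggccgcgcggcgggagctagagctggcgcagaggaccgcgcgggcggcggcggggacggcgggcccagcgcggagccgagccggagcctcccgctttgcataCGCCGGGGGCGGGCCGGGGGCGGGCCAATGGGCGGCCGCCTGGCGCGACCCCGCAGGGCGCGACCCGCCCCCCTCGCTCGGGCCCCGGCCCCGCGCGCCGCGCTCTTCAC
Hoxd1: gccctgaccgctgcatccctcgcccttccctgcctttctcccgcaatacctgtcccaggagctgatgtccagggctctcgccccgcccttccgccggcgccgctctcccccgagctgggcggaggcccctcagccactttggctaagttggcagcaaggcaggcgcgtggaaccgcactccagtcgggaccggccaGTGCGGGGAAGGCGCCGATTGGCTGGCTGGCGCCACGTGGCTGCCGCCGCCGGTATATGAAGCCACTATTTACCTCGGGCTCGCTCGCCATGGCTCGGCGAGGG
All 3 peaks reached across the start site into the first bases of the gene. The Hoxd1 window also overlapped a peak in 1 CT26 distal and 1 CT26 niche library. The other windows with a peak were those of Hoxd9 (5 libraries), Hoxd13 (3), Hoxa3 (2, both 4T1 niche), a start of Hoxa10 (2), Hoxa2 (1, 4T1 niche) and a start of Hoxd11 (1).

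Peaks were not spread evenly over the 4 clusters. The Hoxa cluster (11 genes on chromosome 6) held 19 of the 46 regions, the Hoxd cluster (9 genes, chr2:74668225-74765142) 10, the Hoxb cluster (10 genes, chr11:96194316-96368254) 9 and the Hoxc cluster (9 genes, chr15:102921131-103036856) 8. With flanks, the clusters span 125.5 kb for Hoxa, 193.9 kb for Hoxb, 135.7 kb for Hoxc and 116.9 kb for Hoxd. In all, 35 regions overlapped a Hox gene, 11 lay between or beside genes, and 24 lay within 1 kb of a gene end. The gene table gives only gene spans, so exons, introns and UTRs are not told apart. A peak inside the gene in all 12 libraries was found for Hoxa13 alone, and 16 genes had no peak inside the gene in any library. Hoxb1, which acts in the hindbrain, Hoxb13, a prostate and tail gene, and Hoxc12 had no peak even within 10 kb. Hox regions were also less often shared: 16 of 46 (34.8%) were held by a single library against 15.3% of all regions, and 2 of 46 (4.35%) by all 12 libraries against 42.1%.

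**Figure D1:**
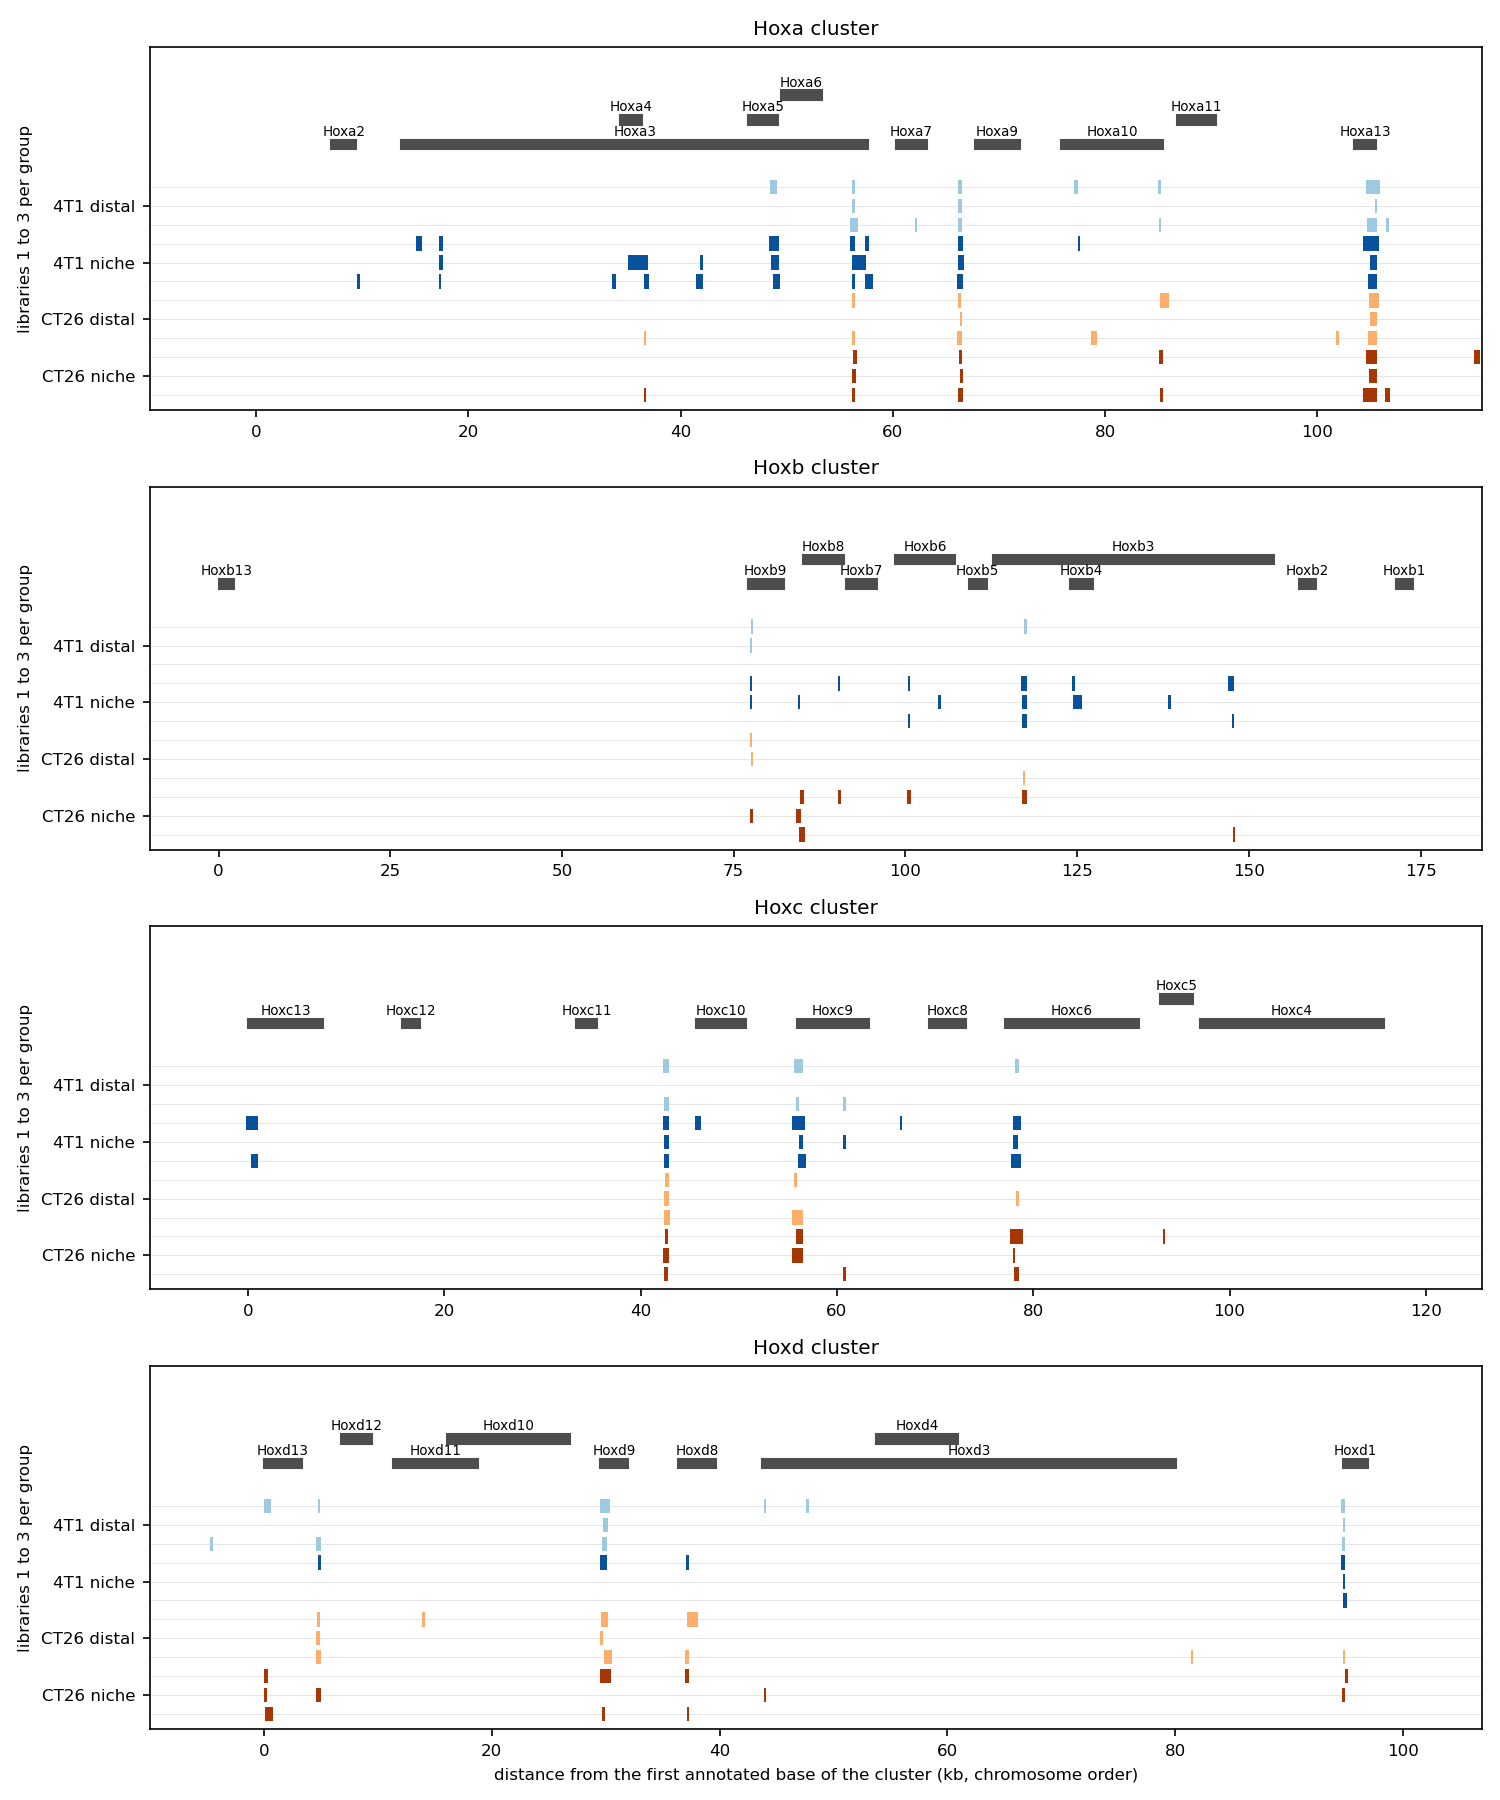
Peaks of each library (coloured bars, 3 rows per group) along the 4 Hox clusters with 10 kb on each side, in kb from the first annotated base of the cluster; dark bars are gene spans, and all bars are to scale; 44 of the 46 regions are drawn. Peaks at Hoxa13 and between Hoxa7 and Hoxa9 recur in all 12 libraries, while the Hoxa2 to Hoxa5 stretch is filled mainly in the 4T1 niche libraries.

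The Hoxa, Hoxb and Hoxc clusters had more length under peaks in the niche than in distal lung, and the Hoxd cluster did not. In the Hoxa cluster 3.98, 1.39 and 3.26 kb lay under peaks in the 4T1 distal libraries 1, 2 and 3, and 5.61, 7.72 and 6.57 kb in the 4T1 niche libraries. For CT26 the values were 2.38, 0.841 and 2.64 kb in distal and 3.37, 2.20 and 3.83 kb in niche libraries. All 4T1 niche libraries lay above all other libraries, while the CT26 groups overlapped.

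In the Hoxb cluster the 4T1 distal libraries had 0.655, 0.190 and 0 kb under peaks against 3.12, 3.32 and 1.21 kb in the 4T1 niche. For CT26 the values were 0.316, 0.343 and 0.262 kb in distal and 2.17, 1.05 and 0.991 kb in niche libraries. Niche and distal libraries did not overlap in either model. Mean length was 9.06 times the distal mean in the 4T1 niche and 4.57 times in the CT26 niche, where all peaks together covered 1.15 and 1.22 times the distal length. The 4T1 value rests on short distal lengths: it was 26.9 times without 4T1 distal library 1 and 6.04 times without 4T1 distal library 3.

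In the Hoxc cluster the 4T1 distal libraries had 1.89, 0 and 1.14 kb against 4.77, 1.79 and 2.99 kb in the 4T1 niche. For CT26 the values were 0.642, 0.848 and 1.70 kb in distal and 2.61, 1.93 and 1.21 kb in niche libraries. The means were higher in the niche (3.15 times in 4T1 and 1.80 times in CT26), but the libraries overlapped in both models. The 4T1 value was 5.57 times without 4T1 distal library 1 and 2.10 times without 4T1 distal library 2.

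In the Hoxd cluster the order was turned: 2.43, 0.687 and 1.29 kb in 4T1 distal against 1.61, 0.231 and 0.416 kb in 4T1 niche libraries. The CT26 libraries hardly differed by site, with 2.24, 0.599 and 1.75 kb in distal and 1.88, 1.16 and 1.18 kb in niche libraries. The 4T1 niche mean was 0.513 times and the CT26 niche mean 0.918 times the distal mean, and the libraries overlapped in both models. Without 4T1 niche library 1 the 4T1 value was 0.220 times. As a share of each window, peaks covered 5.29% of Hoxa, 1.32% of Hoxb, 2.35% of Hoxc and 0.645% of Hoxd on average in the 4T1 niche, beside 3.19% of all protein-coding loci. In 4T1 distal, CT26 distal and CT26 niche libraries the 4 windows together were covered to 0.985%, 0.849% and 1.37%, beside 2.78%, 2.10% and 2.56% of all loci.

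**Figure D2:**
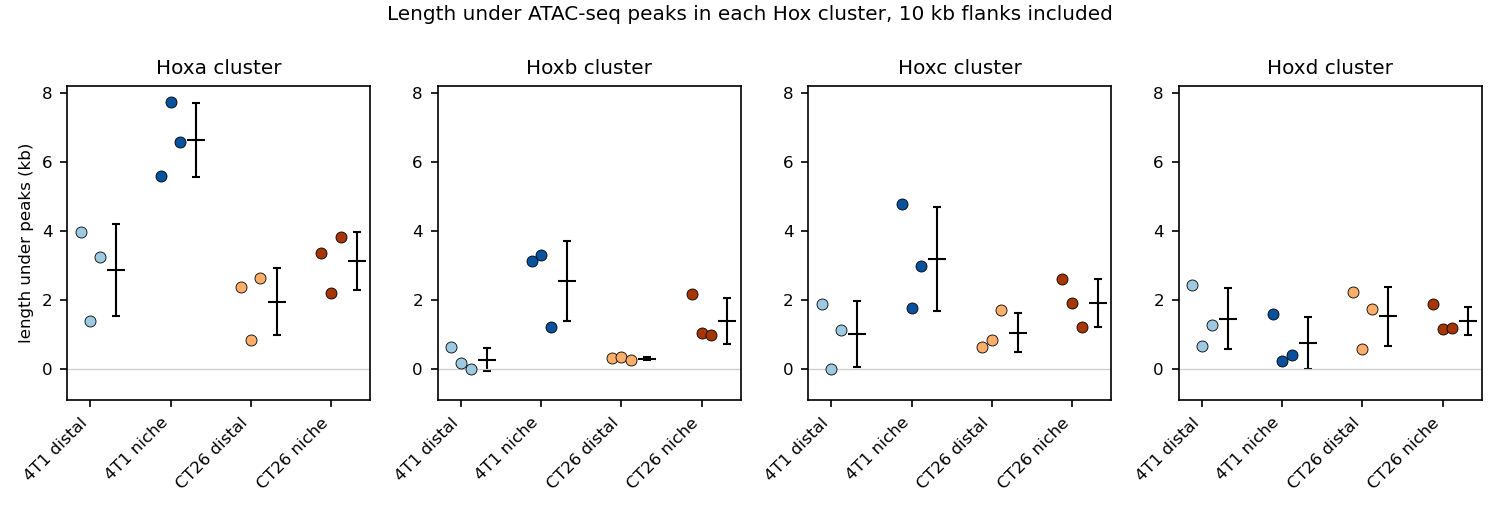
Length under peaks (kb) in each Hox cluster with 10 kb flanks, by group; points are single libraries (n = 3 per group) and the bars beside them are the mean ± SD. The 4T1 niche libraries stand above all others for Hoxa (5.61 to 7.72 kb), niche libraries stand above distal ones for Hoxb in both models, and the Hoxd groups overlap.

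The Hoxa and Hoxb differences were smaller in lists cut to the same number of peaks. This cut takes more weak peaks from longer lists, such as those of the 4T1 niche, and is not a common limit of strength. When every list was shortened to its 42067 strongest peaks, the length of the shortest list, 15 Hox regions were left, and the niche minus distal difference in the Hoxa cluster fell to 0.0683 kb in 4T1 and 0.0547 kb in CT26. In the Hoxb cluster 0.360 and 0.312 kb were left, and in the Hoxc cluster -0.312 kb in 4T1 and 0.310 kb in CT26. The Hoxd difference was then 0 kb in 4T1 and -0.368 kb in CT26.

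Within the Hoxa cluster, split by gene number after the values were seen, the sites differed at the low-numbered genes, in CT26 mainly through a single region. The 10 regions nearest to genes up to Hoxa5 held 1.16 ± 0.357 kb in 4T1 distal, 5.01 ± 1.51 kb in 4T1 niche, 0.282 ± 0.265 kb in CT26 distal and 1.23 ± 0.0943 kb in CT26 niche libraries (mean ± SD, n = 3). The 8 regions nearest to Hoxa9 to Hoxa13, which serve limb, blood and urogenital development, held 1.65 ± 0.958, 1.62 ± 0.483, 1.67 ± 0.719 and 1.90 ± 0.782 kb in the same order. In CT26 most of the difference in the first stretch came from a single region, with 0 kb in distal and 0.797, 0.772 and 0.832 kb in niche libraries. The CT26 peaks within 10 kb of Hoxa5 overlapped between sites, at 0.319, 0 and 0.526 kb in distal and 0.371, 0.415 and 0.508 kb in niche libraries. The first stretch thus differed between groups, in CT26 mainly through that region, and the second was level across them.

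A region inside Hoxa3, a gene of thymus, parathyroid and neck development, was held by all 3 4T1 niche libraries (420, 452 and 261 bp) and by no other library (chr6:52172570-52173021). It was the 1 Hox region of 46 that all 4T1 niche and no 4T1 distal libraries held, beside 2.59% of all regions. Its fold enrichment was 3.33 to 4.43, as deposited. Another Hoxa3 region, at the start of this long gene (chr6:52211287-52213492), was the widest of the cluster, at 2206 bp, and was held by 11 libraries. Its peaks measured 274, 301 and 807 bp in 4T1 distal, 868, 1379 and 1108 bp in 4T1 niche, 319, 0 and 302 bp in CT26 distal and 371, 415 and 319 bp in CT26 niche libraries. Hoxa4, Hoxa5 and Hoxa6 lie inside the annotated span of Hoxa3, so these regions cannot be assigned to one gene.

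The region at the Hoxa5 start (chr6:52203698-52204707), which covers the capitals printed for Hoxa5, was held by 4T1 distal library 1 (629 bp) and all 4T1 niche libraries (918, 769 and 588 bp). No CT26 library had a peak there. The single distal peak kept this region off the list of niche-only regions.

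The 2 regions found in all 12 libraries were both in the high-numbered part of the Hoxa cluster. The first lay between Hoxa7 and Hoxa9, 1014 bp from Hoxa9, a gene of blood cell progenitors (chr6:52221389-52222083). Its peaks measured 428, 377 and 389 bp in 4T1 distal, 440, 583 and 561 bp in 4T1 niche, 248, 209 and 494 bp in CT26 distal and 319, 223 and 477 bp in CT26 niche libraries. It held the Hox peak of highest rank, at percentile 58.9 and a fold enrichment of 6.30. In lists shortened to the same number of peaks it was still held by 10 libraries.

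The second lay over the start of Hoxa13, a gene of digits and the urogenital tract (chr6:52259680-52261289). It measured 1343, 246 and 965 bp in 4T1 distal, 1539, 692 and 853 bp in 4T1 niche, 975, 632 and 793 bp in CT26 distal and 1048, 794 and 1307 bp in CT26 niche libraries. Its groups overlapped. With lists of the same number of peaks it was held by 2 libraries.

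In the Hoxb cluster the widest region, at 1351 bp, lay at an end of Hoxb8, a gene of myeloid progenitors (chr11:96278343-96279693). All CT26 niche libraries held it (618, 705 and 805 bp), with 4T1 niche library 2 (309 bp), and no distal library did. Of the 46 Hox regions 3 were held by all CT26 niche and no CT26 distal library, beside 1.56% of all regions. Together with its neighbours, the 4 regions nearest to Hoxb6 to Hoxb8 held 0 kb in all 6 distal libraries, 0.557 ± 0.207 kb in the 4T1 niche and 0.995 ± 0.419 kb in the CT26 niche (mean ± SD, n = 3). The 4 regions nearest to Hoxb1 to Hoxb5 held 2.13, 2.45 and 0.891 kb in the 4T1 niche libraries against 0.325, 0 and 0 kb in 4T1 distal libraries. In CT26 they held 0.692, 0 and 0.186 kb in niche and 0, 0 and 0.262 kb in distal libraries, which overlapped. A region inside the span of Hoxb3, which acts with Hoxa3 in the neck, led them (chr11:96311068-96312039), with 876, 769 and 642 bp in the 4T1 niche and 325, 0 and 0 bp in 4T1 distal lung. The 1 region beside Hoxb9, a gene of ribs and mammary gland, was held by 7 libraries from all 4 groups.

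In the Hoxc cluster no region was held by all libraries of 1 site and none of the other. A region between Hoxc11 and Hoxc10, genes of the hindlimb level, was held by 11 libraries at a similar length, 376 to 667 bp, and was missing in 4T1 distal library 2 (chr15:102963404-102964078). The widest region lay across the low-coordinate end of Hoxc9, a gene of thoracic motor neurons (chr15:102976556-102977935, 1380 bp). Its peaks measured 849, 0 and 287 bp in 4T1 distal, 1313, 410 and 772 bp in 4T1 niche, 242, 0 and 1095 bp in CT26 distal and 649, 1053 and 0 bp in CT26 niche libraries. Each group had both long and short or missing peaks. A region in Hoxc6 (chr15:102998728-103000061) was held by all 3 niche libraries of both models and by 2 of the 6 distal libraries.

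The Hoxd cluster held another CT26 niche region, at the start of Hoxd13, a gene of digit formation (chr2:74668238-74669049). It was held by all CT26 niche libraries (294, 304 and 754 bp), by 4T1 distal library 1 (553 bp) and by no CT26 distal or 4T1 niche library. The widest region, 1126 bp at Hoxd8 (chr2:74705191-74706316), was held by 5 libraries, 1 of them 4T1 niche and 4 CT26. A region at Hoxd9 (chr2:74697742-74698761) measured 867, 487 and 433 bp in 4T1 distal and 633, 0 and 0 bp in 4T1 niche libraries, and it was held by 5 of 6 CT26 libraries. At Hoxd1, a gene of pain-sensing neurons, all 6 4T1 libraries held a peak of 200 to 416 bp (chr2:74762730-74763375), as did 3 of 6 CT26 libraries.

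No Hox region was held by all distal and no niche libraries of a model, beside 0.143% of all regions in 4T1 and 0.136% in CT26. None was held by all 4T1 and no CT26 library (0.299% of all regions), and none by all CT26 and no 4T1 library (0.00239%).

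**Figure D3:**
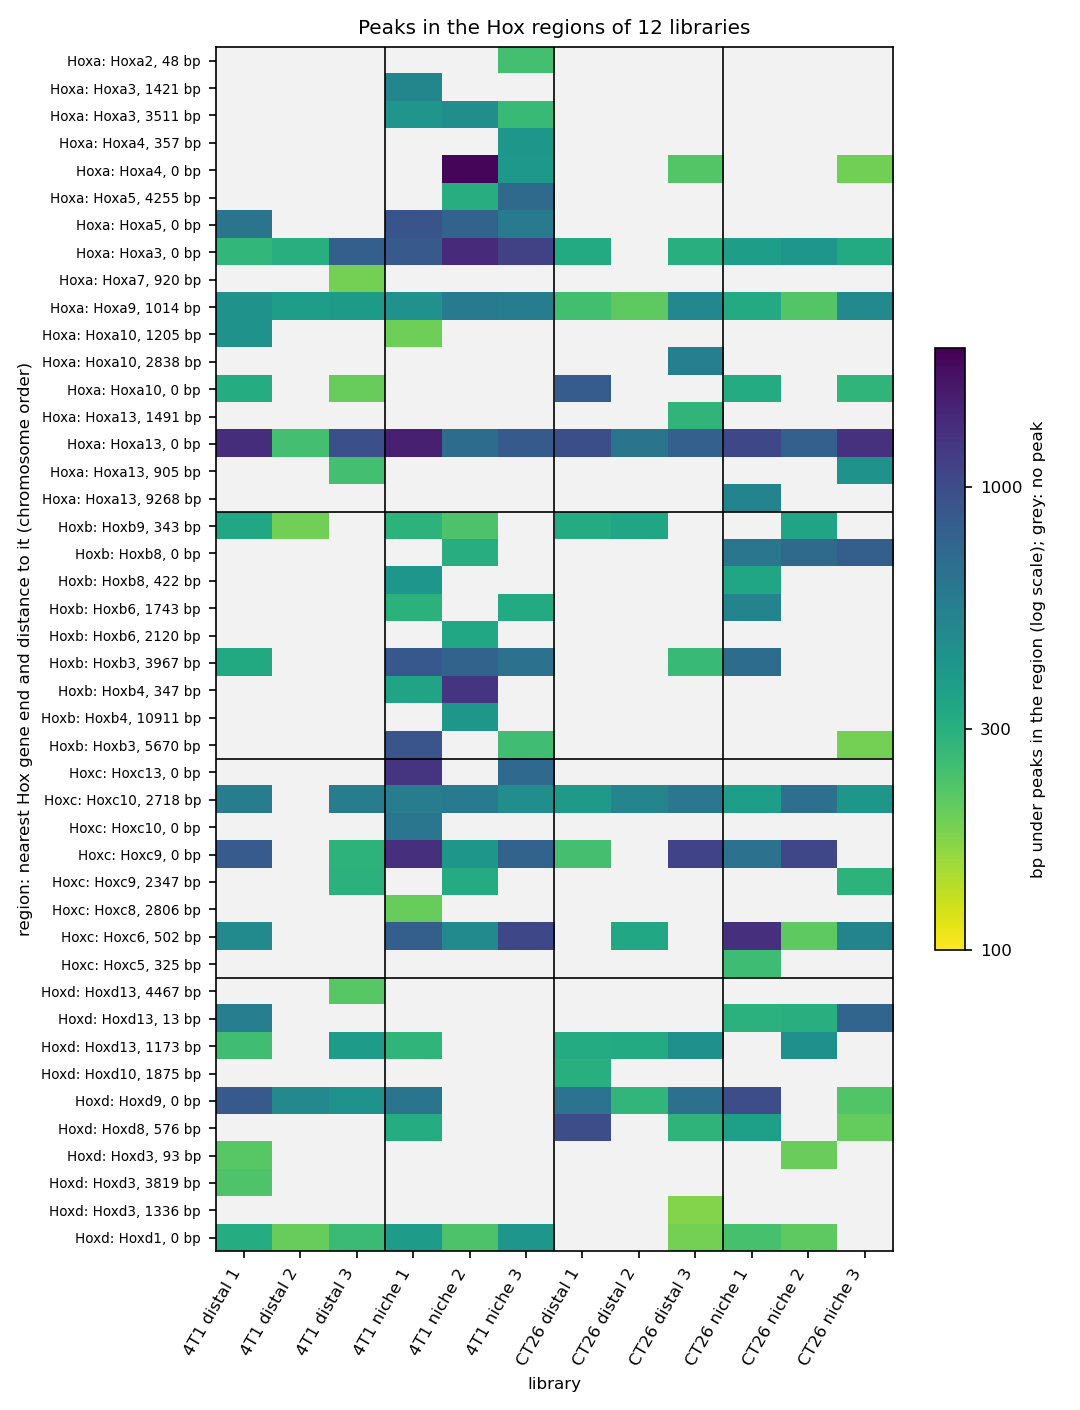
Length in bp under peaks (colour, log scale; grey is no peak) of 44 of the 46 Hox regions, in chromosome order and named by the nearest Hox gene end and its distance, in the 12 libraries. The Hoxa rows near Hoxa2 to Hoxa5 are filled mainly in 4T1 niche libraries, though most of these rows not in every 4T1 niche library. The 2 rows beside Hoxa9 and at Hoxa13 are filled in every library.

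Genes were tested by their loci, a locus being a gene with 10 kb on each side. The length under peaks in a locus was scaled for list length and compared on the log2 scale after 500 bp were added, with limma over all 16819 loci that had a peak in at least 3 libraries, and a locus was called at a Benjamini-Hochberg adjusted p under 0.05. This kept 32 of the 39 Hox loci. The loci of Hoxb1, Hoxb13, Hoxc4, Hoxc5, Hoxc12, Hoxc13 and Hoxd4 were not tested. A locus can pass this filter through the group where it is high. Hox loci overlap, so one region can count in several of them. A group in which all libraries lack a peak has no spread, so the limma p of such a locus can be too small. A log2 change against such a group depends on the 500 bp added and cannot be read as a fold.

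Between 4T1 niche and 4T1 distal lung, the locus of Hoxa2, which patterns the hindbrain and the second branchial arch, and that of Hoxb7 were higher in the niche and no Hox locus was lower. That is 2 of 32, beside 0.624% of all loci tested (0.595% called higher and 0.0297% lower). The Hoxa2 locus held 0.554, 0.465 and 0.462 kb in distal and 1.65, 2.07 and 1.94 kb in niche libraries, with no overlap (log2 change 1.08 ± 0.10 SE, adjusted p = 0.000687, limma). All of this length lay outside the gene, within 10 kb of it. The Hoxb7 locus held no peak in distal libraries and 0.704, 0.646 and 0.320 kb in niche libraries (log2 change 0.92 ± 0.17 SE, adjusted p = 0.0444, limma), and it was tested only because niche libraries held peaks. The Hoxb7 call was lost without any single 4T1 library (limma adjusted p 0.0560 to 0.205) and without each of 4 of the 6 CT26 libraries (0.0505 to 0.0655). Leaving out 4T1 niche library 1 gave 4 calls, Hoxa2, Hoxa3 and Hoxa4 among them, and leaving out CT26 niche library 1 also gave 4 (Hoxa2, Hoxb3, Hoxb6 and Hoxb7).

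Larger changes that missed the threshold were found for Hoxb3 (1.76 ± 0.36) and Hoxa3 (1.48 ± 0.30, limma adjusted p = 0.0585 for each). The Hoxa3 locus held 1.33, 0.678 and 1.38 kb in distal and 3.15, 6.23 and 4.88 kb in niche libraries. The Hoxb3 locus held 0.325, 0 and 0 kb in distal and 2.13, 2.78 and 0.891 kb in niche libraries. Neither pair of groups overlapped. Of the 32 Hox loci 23 had a positive change, and the median log2 change was 0.53, beside -0.05 over all loci. All scaled niche values lay above all distal values in 11 Hox loci, among them Hoxa2, Hoxa3, Hoxa5, Hoxa6, Hoxb3, Hoxb4, Hoxb5, Hoxb6, Hoxb7 and Hoxc8, beside 8.09% of all loci.

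Between CT26 niche and CT26 distal lung, 3 Hox loci, Hoxa2 and Hoxb7 among them, were higher in the niche and none was lower. That is 3 of 32, beside 0.672% of all loci (0.523% called higher and 0.149% lower). The Hoxa2 locus held 0 kb in every distal library and 0.797, 0.772 and 0.832 kb in the niche libraries (log2 change 1.42 ± 0.10 SE, adjusted p = 6.59e-05, limma). This length came from a single region outside the gene, which counts in more than 1 of the called loci, so the calls are not independent. The Hoxb7 locus held no peak in distal libraries and 1.48, 0.705 and 0.805 kb in niche libraries (log2 change 1.58 ± 0.17 SE, adjusted p = 0.00325, limma). The CT26 distal libraries had no spread at either locus, so both p values can be too small. The Hoxb7 locus was tested only because niche libraries held peaks. It contains the region at Hoxb8, and Hoxb7 itself held no peak in any library. The median change of the 32 Hox loci was 0.17, beside -0.04 over all loci, and 21 were positive. Niche values lay above distal values in every library for 5 Hox loci, among them Hoxa2, Hoxb7, Hoxb8 and Hoxb9, beside 6.76% of all loci.

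Over both models, the niche was higher than distal lung in 4 Hox loci, Hoxa2, Hoxb7 and Hoxb8 among them, and lower in none. That is 4 of 32, beside 2.38% of all loci (1.5% called higher and 0.886% lower). The log2 changes were 1.25 ± 0.07 for Hoxa2, 1.25 ± 0.12 for Hoxb7 and 0.86 ± 0.20 for Hoxb8 (SE). The limma adjusted p was 2.15e-05 for Hoxa2, 0.000702 for Hoxb7 and 0.0463 for Hoxb8. The Hoxb7 locus held no peak in any distal library and was tested only through niche libraries. Its p, and that of Hoxa2 with no peak in CT26 distal libraries, can be too small. The Hoxb8 locus held 0.330, 0.190 and 0 kb in 4T1 distal, 0.993, 0.540 and 0.320 kb in 4T1 niche, 0.316, 0.343 and 0 kb in CT26 distal and 1.48, 1.05 and 0.805 kb in CT26 niche libraries. Its lowest 4T1 niche library lay below its highest distal library, and its call was lost without each single library except CT26 distal library 2 (limma adjusted p 0.0513 to 0.0971).

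With lists shortened to the same number of peaks, no Hox locus was called in any of the 5 comparisons, and 20 Hox loci were left to test, with 3 to 7 at an unadjusted p under 0.05 (limma). The Hoxa2 change was then 0.60 in 4T1 (adjusted p = 0.751, limma) and 0.92 in CT26 (adjusted p = 0.325, limma). Without scaling for list length, the median change of all loci moved from -0.05 to 0.12 in 4T1, from -0.04 to 0.18 in CT26 and from -0.04 to 0.15 over both models. The called Hox loci were then 7, 4 and 14, all higher in the niche, among 565 higher and 4 lower calls over all loci in 4T1, 2014 and 16 in CT26 and 3956 and 25 over both, where scaled values gave 100 and 5, 88 and 25, and 252 and 149.

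The niche change was not shown to differ between the tumour models. None of the 32 Hox loci passed the test of the difference between the 2 niche changes (limma, smallest adjusted p = 0.344, 8 loci at an unadjusted p under 0.05), beside 0.0595% of all loci (0.0178% higher and 0.0416% lower). The smallest p belonged to Hoxa3, with a CT26 minus 4T1 difference in niche change of -1.34 ± 0.43 SE (limma adjusted p = 0.344), and Hoxb3 was among the 3 smallest (-1.43 ± 0.51 SE, limma adjusted p = 0.406).

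Between the models, with both sites together, 5 low-numbered Hoxa loci were lower in CT26 than in 4T1 mice, among them Hoxa2, Hoxa3, Hoxa5 and Hoxa6. The Hoxd12 locus was higher. That is 6 of 32, beside 24.1% of all loci (19.2% called higher and 4.92% lower), so the share of Hox loci called was not above the background, while 5 of 32 called lower stands beside 4.92%. The log2 changes were -0.79 ± 0.07 for Hoxa2, -1.06 ± 0.21 for Hoxa3, -0.95 ± 0.21 for Hoxa5 and -1.03 ± 0.19 for Hoxa6 (SE). Their limma adjusted p was 0.000886 for Hoxa2, 0.00976 for Hoxa3, 0.0120 for Hoxa5 and 0.00915 for Hoxa6.

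The Hoxa5 locus held 0.903, 0.301 and 0.807 kb in 4T1 distal and 1.79, 3.01 and 2.81 kb in 4T1 niche libraries. In CT26 it held 0.319, 0 and 0.526 kb in distal and 0.371, 0.415 and 0.508 kb in niche libraries. The CT26 libraries of both sites lay within or below the range of the 4T1 distal libraries. The Hoxa6 locus shares most of these regions and held 1.79, 2.46 and 2.41 kb in 4T1 niche against 0.371, 0.415 and 0.319 kb in CT26 niche libraries. The Hoxd12 locus, a gene of limb development, held 0.804, 0 and 0.382 kb in 4T1 distal, 0.280, 0 and 0 kb in 4T1 niche, 0.622, 0.321 and 0.446 kb in CT26 distal and 0.294, 0.746 and 0.754 kb in CT26 niche libraries, and the models overlapped (log2 change 0.68 ± 0.23 SE, adjusted p = 0.0483, limma). Its call was lost without each of 10 of the 12 libraries (limma adjusted p 0.0510 to 0.104). Leaving out CT26 distal library 3 or CT26 niche library 1 raised the number of Hox calls from 6 to 10.

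This comparison depended on list length. Without scaling, the median change of all loci was -0.21, where scaled values gave 0.08, and 21 loci were called higher and 7786 lower, with 8 Hox loci lower and none higher. When each list was shortened to 42067 peaks the Hoxa2 and Hoxa3 differences turned to 0.16 and 0.26. The models also differ in the mice used, so tumour line and any batch that went with it cannot be told apart.

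**Figure D4:**
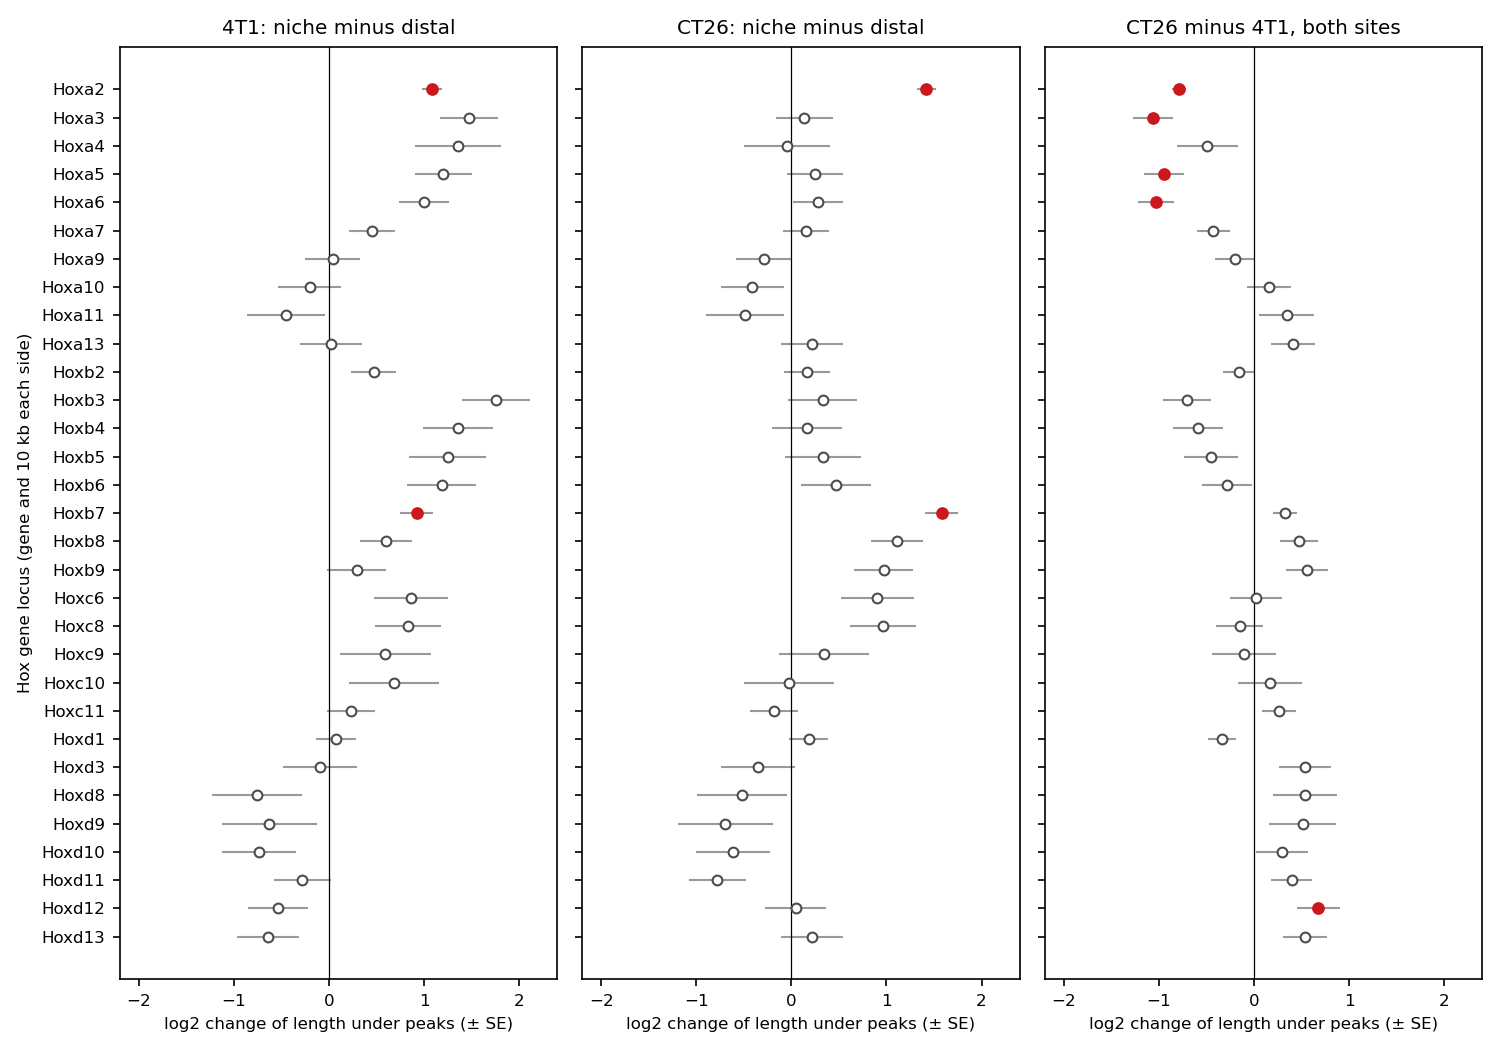
Log2 change of scaled length under peaks (± SE, limma) of 31 of the 32 tested Hox loci in 4T1 niche minus distal, CT26 niche minus distal and CT26 minus 4T1; filled red points have an adjusted p under 0.05. Hoxa2 and Hoxb7 are filled in both niche comparisons, and Hoxa2, Hoxa3, Hoxa5 and Hoxa6 are filled below 0 in the model comparison.

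No locus of a Hox regulator was called between niche and distal lung. None of the loci of Hox cofactors (9 tested), Polycomb genes (23), Trithorax and MLL genes (13), cohesin and CTCF genes (7), retinoic acid genes (15), genes beside the clusters (10) and ParaHox and other related homeobox genes (10) was called in 4T1, in CT26, over both, or in the difference between them. Over all loci 0.624%, 0.672%, 2.38% and 0.0595% were called in these comparisons, in the same order. At such shares, lists of this size would hold few calls or none, so their absence does not set these genes apart. At an unadjusted p under 0.05 the counts per list were 0 to 3 in 4T1, 0 to 5 in CT26, 0 to 5 over both and 0 to 3 for the difference (limma). Their median log2 changes in 4T1 ran from -0.07 for Trithorax and MLL genes to 0.13 for Hox cofactors, and in CT26 from -0.09 for Polycomb genes to 0.32 for ParaHox and related genes. Between models, 2 cofactor loci were lower in CT26, among them Pknox1 (-0.45 ± 0.11), which encodes a partner of Pbx and Hox proteins on DNA. Of the Polycomb loci 6 were higher and 1 lower, among them Suz12, a core subunit of the methylating complex (0.36 ± 0.10), and Kdm6a, which removes the Polycomb methyl mark (-0.28 ± 0.07). The homeobox gene Meox2 (0.41 ± 0.08) was higher in CT26. The limma adjusted p of these 4 was 0.0171 for Pknox1, 0.0282 for Suz12, 0.0213 for Kdm6a and 0.00917 for Meox2. Of the Trithorax and MLL loci 2 were higher in CT26 and 1 lower. Called higher in CT26 were also 1 cohesin or CTCF locus, 2 retinoic acid loci and 2 loci beside the clusters. These calls stand beside the 24.1% of all loci called between the models.

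Marker loci of several cell types also had more length under peaks in the niche, and those of lung mesenchyme had the largest scaled median change. In bulk sorted samples, more cells of another type and more open DNA per cell cannot be told apart. After scaling, the median log2 niche change in 4T1 and CT26 was 0.49 and 0.41 for mesenchyme, 0.05 and 0.18 for endothelial, -0.09 and 0.01 for leukocyte, -0.04 and -0.16 for airway, 0.18 and 0.06 for mammary and 0.01 and -0.08 for intestinal loci. The sums that follow are not scaled and stand beside the 1.15 and 1.22 times longer total of all peaks. The 12 mesenchyme and fibroblast marker loci together held 6.12 to 9.56 kb under peaks in 4T1 distal, 11.6 to 12.01 kb in 4T1 niche, 4.45 to 6.64 kb in CT26 distal and 7.38 to 13.9 kb in CT26 niche libraries. Niche and distal ranges did not overlap in either model, the defining markers Dcn and Lum had no peak in any library, and 3 of the 12 had a peak in all 12 libraries. Twist1, a mesenchymal transcription factor, was the 1 locus of this list called over both models (1.01 ± 0.23 SE, adjusted p = 0.0448, limma). The 8 endothelial loci held 14.5 to 15.3, 17.9 to 22.5, 9.43 to 12.6 and 12.7 to 15.3 kb in the same order, with no peak at Emcn, and Pecam1 was called higher in the niche over both models (0.70 ± 0.16 SE, adjusted p = 0.0432, limma). These calls over both models stand beside 2.38% of all loci (1.5% called higher and 0.886% lower).

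The 11 leukocyte loci held 15.8 to 17.3, 16.1 to 19.9, 10.6 to 11.4 and 10.6 to 16.6 kb, with no peak at S100a9, and niche and distal ranges overlapped in both models. Between models, Cd3e (-1.81 ± 0.20, limma adjusted p = 0.00232) and Itgam (-1.19 ± 0.25, limma adjusted p = 0.0100) were lower in CT26 and Lck (0.29 ± 0.06, limma adjusted p = 0.00981) was higher, and the median of the 7 leukocyte loci tested was 0.04. Such calls were not limited to leukocyte loci: 3 AT2 loci and 1 endothelial locus were also lower in CT26, and 1 AT1 and 1 mesenchyme locus higher. Over all loci 24.1% were called between the models (19.2% higher and 4.92% lower). The 7 mammary loci held 18.98 to 23.9, 24.6 to 25.3, 11.8 to 15.3 and 14.4 to 23.2 kb. Niche and distal ranges of the mammary list were apart in 4T1 and overlapped in CT26. The 7 intestinal loci held 10.97 to 12.5, 13.3 to 14.1, 8.87 to 9.86 and 8.56 to 12.6 kb, with no peak at Krt20. They too were apart in 4T1 and overlapped in CT26. Of the 4 airway loci, Krt5 had no peak, and the list held 6.37 to 7.78, 7.50 to 8.63, 5.94 to 6.39 and 5.49 to 6.79 kb. Pdpn, an AT1 cell marker, was called higher in the CT26 niche (0.92 ± 0.16 SE, adjusted p = 0.0364, limma) and over both models (0.65 ± 0.11 SE, adjusted p = 0.0196, limma), while 1 of the 7 AT1 loci was positive in 4T1 (median -0.08) and 2 were positive over both models (median -0.03). The AT2 gene Sftpb was lower over both (-0.36 ± 0.07 SE, adjusted p = 0.0249, limma). The Pdpn and Sftpb calls stand beside 0.672% of all loci called in CT26 and 2.38% over both models. The 7 AT1 loci, all with a peak in every library, held 29.03 to 30.3, 29.97 to 35.97, 21.03 to 23.3 and 26.99 to 32.9 kb, and the 11 AT2 loci 57.95 to 74.2, 68.9 to 78.02, 42.9 to 50.4 and 49.2 to 59.8 kb. Niche and distal ranges of the AT1 list were apart in CT26 and overlapped in 4T1, and those of the AT2 list overlapped in both models. The part of other cells in the Hox peaks was not tested.

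Motifs were counted on both strands of the promoter windows, as plain letter matches. The letters TAAT, the core that homeodomain proteins read, were in 19 of 24 Hox windows (79.2%) and in 58.0% of all windows. The joint Hox and Pbx motif TGATTNAT was in 2 Hox windows, those of Hoxa2 and a start of Hoxd11 (8.33% against 3.24%). The motif of Sp and Klf factors, GGGCGG, was in 10 windows (41.7% against 35.9%), Hoxa13 and Hoxd1 among them. For the retinoic acid receptor motif, only an exact direct repeat of AGGTCA with 5 bases between the copies was searched. This repeat was in no Hox window and in 0.0092% of all windows (3 of 32619), so rare that its absence from 24 windows tells nothing. These are matches of letters in 300 bases and do not show binding.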

How the data were processed

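Omni-ATAC-seq was made of AT2 cells in 12 libraries, and the authors deposited a broad peak list for each. Per the submitters' processing notes, MACS2 and bedtools were used with the GRCm38 build; their versions, the aligner and the filters were not given in the sources used here. In the deposited lists, peak start and end are in bp, the fold enrichment of a peak is a ratio within its library, and p and q are given as -log10 values. The score column was not used. The lists hold no read counts, so precision from depth could not be computed.

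Peaks of the 19 autosomes and of X were merged into regions at an overlap of at least 1 bp, and a library held a region where it had a peak. Locus lengths were multiplied by the mean total covered length over that of the library, 500 bp were added, and log2 values were fitted in limma 3.58.1 (R 4.3.3) with 4 group means, trended variance and 8 residual degrees of freedom, over 16819 loci and all 5 comparisons. Changes on this scale understate those of short totals. Gene spans and promoter windows came from RefSeq tables of GRCm38. Groups and replicate numbers came from the sample titles. The labels give a pool of lungs for each library but do not state whether same-numbered niche and distal libraries shared a pool. Correlations of deviations between same-numbered niche and distal samples were 0.0288 to 0.0891 in 4T1 and -0.0439 to 0.0177 in CT26. Each 4T1 sample still correlated best with the sample of its own number, and no CT26 sample did. The correlations were taken as too low to treat the numbers as pairs, so samples were not paired. With a replicate block as an alternative, the Hoxb7 niche calls in 4T1 and in CT26 were lost.

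The members, the gene lists and the named-gene rule were chosen with earlier results of these data known. Items withheld from the text, 1 Hox gene and some list genes, count in the totals but are not reported here. Named were Hox loci called in a comparison, or else the 3 of smallest p, regions held by all libraries of a group pattern, the widest region of each cluster, and up to 3 called genes per list. Regions at Hoxa5, Hoxb3, Hoxc6, Hoxc10, Hoxd1 and Hoxd9, further Hox loci and the split of clusters by gene number were added after their values were seen. Alternatives were a -log10 q of at least 5, 100 bp added, a 2 kb flank, no filter, no scaling, lists of 42067 peaks each, a replicate block, peaks joined within 500 bp, 50% cover of a region, and leaving out each library.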

Additional observations from a re-analysis of the deposited data

How the results depend on the processing

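At a -log10 q of at least 5, 0 Hox loci were called in 4T1, in CT26, over both models and between models, with 6 loci left to test and 0 to 2 at an unadjusted p under 0.05 (limma), and with lists of the same number of peaks 0 were called in each, with 20 left. A 2 kb flank left 1 call in 4T1 with 21 loci to test, no scaling gave 7 in 4T1 and 14 over both models, and 100 bp added gave 1 call (Hoxa2) in the difference between niche changes. Leaving out 1 library gave 1 to 4 calls in 4T1, 3 in CT26 each time, 3 to 5 over both and 5 to 10 between models. The reversed values were the CT26 minus 4T1 changes of Hoxa2 (0.16) and Hoxa3 (0.26) with the same number of peaks. Under the replicate block 1 Hox locus (Hoxa2) was called in 4T1 and 1 (Hoxa2) in CT26: Hoxb7 in 4T1 (adjusted p = 0.142) and in CT26 (0.0569) missed the threshold, with 4 loci over both models and 8 between models. Each 4T1 sample correlated best with the sample of its own number and no CT26 sample did.

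Regions held by all niche and no distal libraries numbered 2 in 4T1 and 1 in CT26 when 50% of the region had to be covered, and 0 in both at a -log10 q of at least 5 and with the same number of peaks. Regions in all 12 libraries numbered 0 under these 3 settings. Without 1 library, niche-only regions numbered 1 to 4 in 4T1 and 3 to 4 in CT26, distal-only regions 0 to 1 in each, and regions in all remaining libraries 2 to 3. The niche minus distal length of the Hoxa cluster was 0.433 kb in 4T1 and 0.106 kb in CT26 at a -log10 q of at least 5, and 0.0683 and 0.0547 kb with the same number of peaks. For Hoxb these values were 0.256 and 0 kb, then 0.360 and 0.312 kb, and for Hoxc -0.216 and 0.125 kb, with -0.312 and 0.310 kb for the same number of peaks. Without 1 library the ranges in 4T1 and CT26 were 3.02 to 4.31 and 0.627 to 1.65 kb for Hoxa, 1.89 to 2.94 and 0.714 to 1.302 kb for Hoxb, 1.38 to 2.87 and 0.508 to 1.21 kb for Hoxc, and -1.15 to -0.236 and -0.591 to 0.231 kb for Hoxd. The stricter settings drop peaks by construction; other causes were not tested. The Hoxa2 calls in 4T1, in CT26 and over both models held without each single library and under the replicate block. The cluster lengths limit what can be read from any one Hox gene, because overlapping loci share regions.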
